A study of Homo sapiens with 4 samples.

Results

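The genes described here drive and guard mitosis: 41 genes for mitotic kinases and cyclins, the spindle checkpoint, the kinetochore, and the spindle and midbody. They were chosen by name among the 30716 genes of the deposited table, kinesin families left out, although CENPE is itself a kinesin-like motor. All 41 had counts and all 41 passed the filter on low counts. RNA came from KYSE30, an established human ESCC (esophageal squamous cell carcinoma) line. Stable, puromycin-selected cells with a control hairpin (shNC) were compared with such cells carrying a hairpin against YY1, a transcription factor (shYY1), at 2 libraries per group. Nothing in the labels tells separate cultures from repeat libraries, so each p-value reflects library-to-library spread that may be technical. With 1 hairpin per group, loss of YY1 and off-target effects cannot be told apart.

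Entry into mitosis is driven by the kinase CDK1 bound to cyclins A and B, with Polo-like and Aurora kinases acting beside it. Kinetochores, built on centromeres that are marked by the histone variant CENPA, attach chromosomes to spindle microtubules. The spindle checkpoint holds back the anaphase-promoting complex until every kinetochore is attached, and CDC20 is the activator it restrains. Most of these genes are transcribed in a wave in G2 and M phase, and the promoters of many carry a short element called the CHR together with CCAAT boxes. In bulk RNA a lower share of cells in G2 and M phase and less RNA per cell cannot be told apart.

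YY1 was measured before the mitosis genes as a check of the labels. It stood at 116 and 110 CPM, counts scaled to a common library size, in the shNC libraries and at 37.1 and 34.3 CPM in the shYY1 libraries, with a log2 fold change of -1.67 ± 0.088 (SE; edgeR adjusted p = 6.18e-05). Libraries held 67390336 to 72499865 counts. The 11 squamous epithelial markers all had counts and summed to 1411 and 1398 CPM in shNC and 1674 and 1662 CPM in shYY1. PERP, SFN, CDH1, EPCAM and DSP made up most of the sum, and PERP rose (log2 fold change 0.70 ± 0.0842, SE; edgeR adjusted p = 0.00197). TP63, SOX2 and KRT6A were at 44.6 to 53.5, 32.3 to 44.8 and 31.5 to 39.0 CPM. The basal keratin KRT5 was at 0.357 to 0.641 CPM, near the level of single retina markers, and KRT17 and KRT14 were at 1.18 to 1.74 and 3.74 to 4.67 CPM. The part of this marker shift in the results was not tested. Retina is named in the labels' account of RNA extraction. Of 14 retina markers 5 had counts, and the list summed to 0.854 to 1.66 CPM. Fibroblast, immune and endothelial lists summed to 4.25 to 7.15 CPM.

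Of the 41 mitosis genes, 5 fell, 1 rose and 35 did not pass (edgeR, quasi-likelihood test, Benjamini-Hochberg adjusted p under 0.05). AURKA, CENPA, ANLN, MKI67 and DLGAP5 fell and BIRC5 rose. Over all 18035 tested genes 9.94% passed, 4.90% lower and 5.05% higher, against 12.2% lower and 2.44% higher among the mitosis genes. Mitosis genes averaged 21.5 to 499 CPM, and among tested genes at 5 CPM or more 7.67% fell and 8.17% rose. A fall of at least 2-fold that passed the test was seen in AURKA and CENPA, and in 0.843% of all tested genes. The median log2 fold change was -0.11 over the 41 genes and -0.01 over all tested genes. In 24 of the 41, or 58.5%, the shYY1 libraries lay both above or both below the shNC libraries, as they did in 54.9% of all tested genes. For 31 of the 41 the log2 fold change lay within 0.25 of 0.

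**Figure D1:**
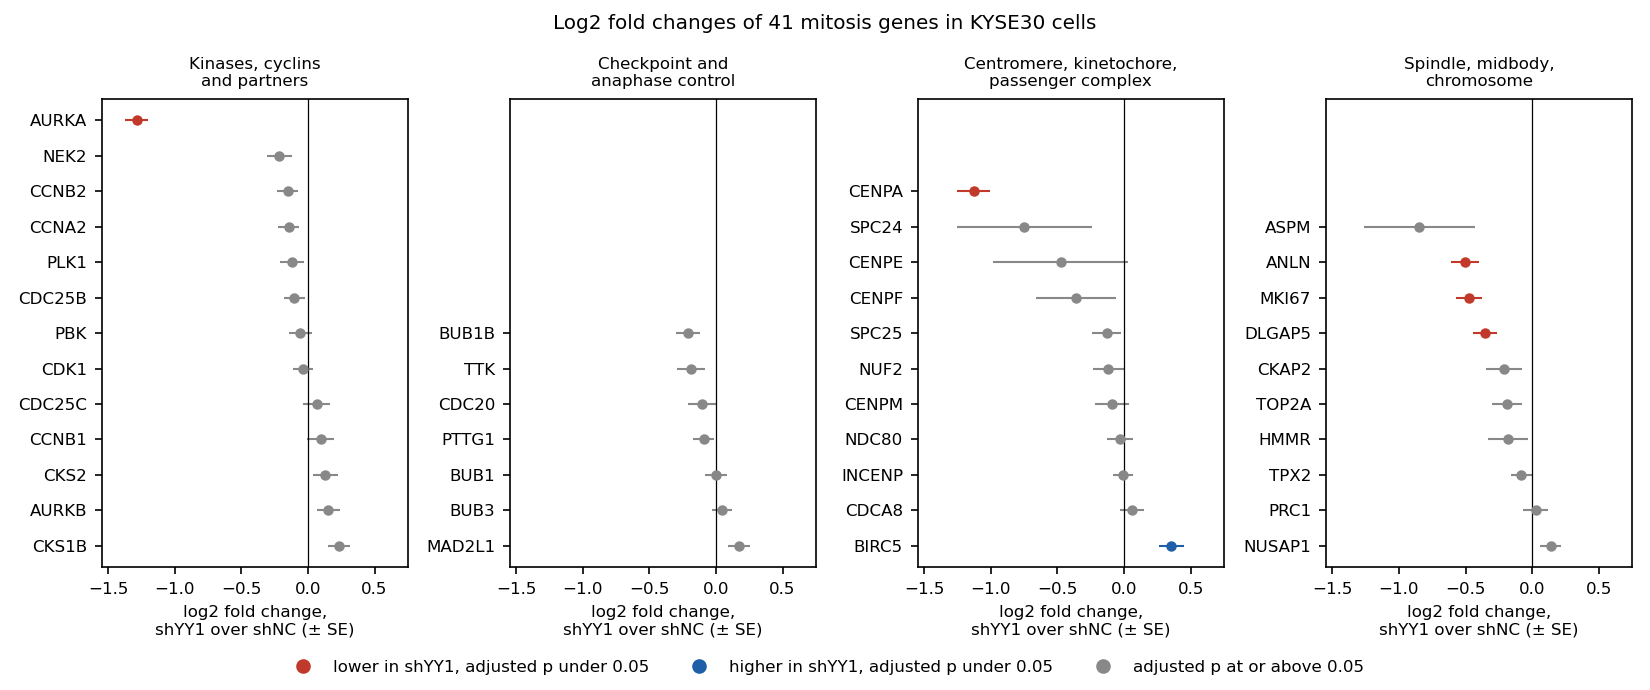
Log2 fold change of shYY1 over shNC (x axis, bars are ± SE from edgeR's fit) for each of the 41 mitosis genes (y axis), in 4 panels by role; red and blue points have an adjusted p under 0.05. AURKA and CENPA have the lowest values of their panels, -1.29 and -1.13, the bar of SPC24 (-0.75 ± 0.505) covers the value of CENPA, and no gene of the checkpoint panel passed.

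As the CHR element is a feature that mitotic promoters are known to share, the start-site region was searched for it. RefSeq promoters (GRCh38.p14, 250 bases before to 50 after the start) were at hand for 34 of the 41 genes. None was at hand for BUB3, CENPM, PBK, TPX2, TTK, AURKA, which fell, or BIRC5, which rose, so these were not searched. TTTGAA or TTCGAA, on either strand, lay in the promoters of 26 of the 34, or 76.5%, against 16.4% of all 35116 promoters. In these shares a mitosis gene counted if any of its promoters held a match, while the share of all is per single promoter. CDC25B and CDC25C had 4 promoters each, and AURKB, CDK1 and PTTG1 had 2 each. CCAAT lay in 28 of the 34, or 82.4%, against 34.6% of all. Both kinds together lay in 22, or 64.7%, against 6.38%. GCCATNTT, the core of the YY1 motif, was searched on both strands and lay in the promoter of CENPE alone, or 2.94%, against 6.58% of all promoters. Matches of these motifs can share bases at their ends only, and a match is a description of the sequence, not a site that YY1 or another factor was shown to bind. The stretches around the match nearest to the start, of those on either strand, are shown for the 4 genes that fell and had a promoter in the table (CENPA, ANLN, MKI67, DLGAP5) and for 4 that did not pass (PLK1, CCNB2, CDC20, CKS1B), all read along the gene with the match in capitals.
CENPA, chr2:26786026-26786055, plus strand: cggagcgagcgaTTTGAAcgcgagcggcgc
ANLN, chr7:36389830-36389859, plus strand: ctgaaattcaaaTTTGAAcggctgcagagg
MKI67, chr10:128126435-128126464, minus strand: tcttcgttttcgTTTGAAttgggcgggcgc
DLGAP5, chr14:55191565-55191594, minus strand: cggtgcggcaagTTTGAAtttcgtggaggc
PLK1, chr16:23678848-23678877, plus strand: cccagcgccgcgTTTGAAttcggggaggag
CCNB2, chr15:59105105-59105134, plus strand: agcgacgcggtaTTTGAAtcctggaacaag
CDC20, chr1:43358904-43358933, plus strand: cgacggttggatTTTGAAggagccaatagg
CKS1B, chr1:154974639-154974668, plus strand: gcgggcggcgtgTTTGAAagcgaggccaaa
The 8 were shown because they hold a match. Of the 34 genes with a promoter, all 4 that fell and 22 of the 30 others held TTTGAA or TTCGAA, and AURKB, CCNA2, CCNB1, CENPE, CKAP2, NEK2, PTTG1 and SPC24 held neither. The difference between these shares was not tested. The match began at position -18 from the start in CENPA, -20 in ANLN, -29 in MKI67, PLK1 and CCNB2, and -30 in CKS1B. In CDC20 it began at -65, and in DLGAP5 at 3, past the start.

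Among the 13 kinases, cyclins and their partners, 1 fell and 12 did not pass. The median of their log2 fold changes was -0.06. The share that fell was 7.69%, beside 4.90% of all tested genes and 7.67% of those at 5 CPM or more. AURKA encodes Aurora A, the kinase of centrosome maturation and spindle pole assembly (ENSG00000087586, chromosome 20, 56369389 to 56392296, minus strand in the deposited table). The 4 counts of AURKA were 10563 and 11386 (shNC) and 4667 and 4107 (shYY1). On the CPM scale this was 151 and 158 in shNC and 66.4 and 60.1 in shYY1, so both shYY1 libraries lay far below both shNC libraries. AURKA fell 2.44-fold, with a log2 fold change of -1.29 ± 0.0849 (SE; edgeR adjusted p = 0.000179). It passed in all 14 alternative fits, with values from -1.36 to -1.21. The processed pseudogene AURKAP1 had 7 to 80 counts, at most 1.35% of the AURKA count in any library.

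AURKB, the paralog that acts at centromeres and the cleavage furrow as part of the chromosomal passenger complex, stood at 112 and 129 CPM in shNC and 136 and 132 CPM in shYY1. Its log2 fold change was 0.15 ± 0.0871 (SE), with an interval (95%) from -0.05 to 0.35, and it did not pass (edgeR adjusted p = 0.328). On the length-scaled FPKM scale (fragments scaled by transcript length and library size) the level of AURKA over that of AURKB was 1.03 and 0.939 in shNC and 0.374 and 0.349 in shYY1. The ratio was thus lower in both shYY1 libraries, by 1.44 on the log2 scale. An exact two-sided permutation test gave p = 0.333, the smallest that 2 libraries against 2 allow, in a family of 8 gene pairs compared. All 8 pairs gave this p, also NDC80 over NUF2 with a difference of 0.09, so the test cannot set this pair apart. AURKB passed as higher without shNC replicate 2 (0.26, edgeR adjusted p = 0.0212).

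CDK1 and the genes that switch it on did not pass. CDK1 stood at 137 and 141 CPM in shNC and 135 and 137 CPM in shYY1, a log2 fold change of -0.04 with an interval from -0.20 to 0.13. CCNB1, cyclin B1, stood at 349 and 420 CPM in shNC and 414 and 407 CPM in shYY1. Its groups overlapped, and its interval ran from -0.13 to 0.32. CCNB2, the Golgi-associated B-type cyclin, had a log2 fold change of -0.15 (interval -0.33 to 0.03), and CCNA2, cyclin A2, one of -0.15 (-0.33 to 0.04). PLK1, the Polo-like kinase, stood at 332 and 384 CPM in shNC and 328 and 330 CPM in shYY1, with -0.12 (-0.33 to 0.09). CDC25B and CDC25C, the phosphatases that switch CDK1 on, stood at -0.10 (-0.28 to 0.08) and 0.07 (-0.16 to 0.29). None of these intervals reached the value of AURKA.

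NEK2, a kinase of centrosome separation, had the next lowest value of this role: 79.1 and 69.0 CPM in shNC and 65.6 and 62.0 CPM in shYY1, a log2 fold change of -0.21 ± 0.0949 (SE; edgeR adjusted p = 0.201). The small CDK-binding proteins CKS1B and CKS2 lay on the other side of 0. CKS1B, which also helps the ubiquitin ligase SCF-SKP2 to recognise p27, stood at 200 and 223 CPM in shNC and 246 and 250 CPM in shYY1, so its groups did not overlap. Its log2 fold change was 0.23 ± 0.0827 (SE; edgeR adjusted p = 0.119), and it passed with DESeq2 (adjusted p = 0.0421). CKS2 stood at 232 and 272 CPM in shNC and 276 and 276 CPM in shYY1, with 0.13 ± 0.0927 (SE; edgeR adjusted p = 0.445). PBK, a mitotic MAP kinase kinase-like protein, stood at -0.06 ± 0.0862 (SE). On the FPKM scale CKS2 had the highest level of all 41 genes, 349 ± 26.5 in shNC (SD, n = 2), and CDC25C had the lowest of this role, 9.95 ± 0.469. Without shNC replicate 2, CCNB1 (0.24, edgeR adjusted p = 0.0122), CKS1B (0.31, 0.00577) and CKS2 (0.26, 0.0114) passed as higher and NEK2 (-0.30, 0.0283) as lower, and without shNC replicate 1 PLK1 passed as lower (-0.22, 0.0291).

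**Figure D2:**
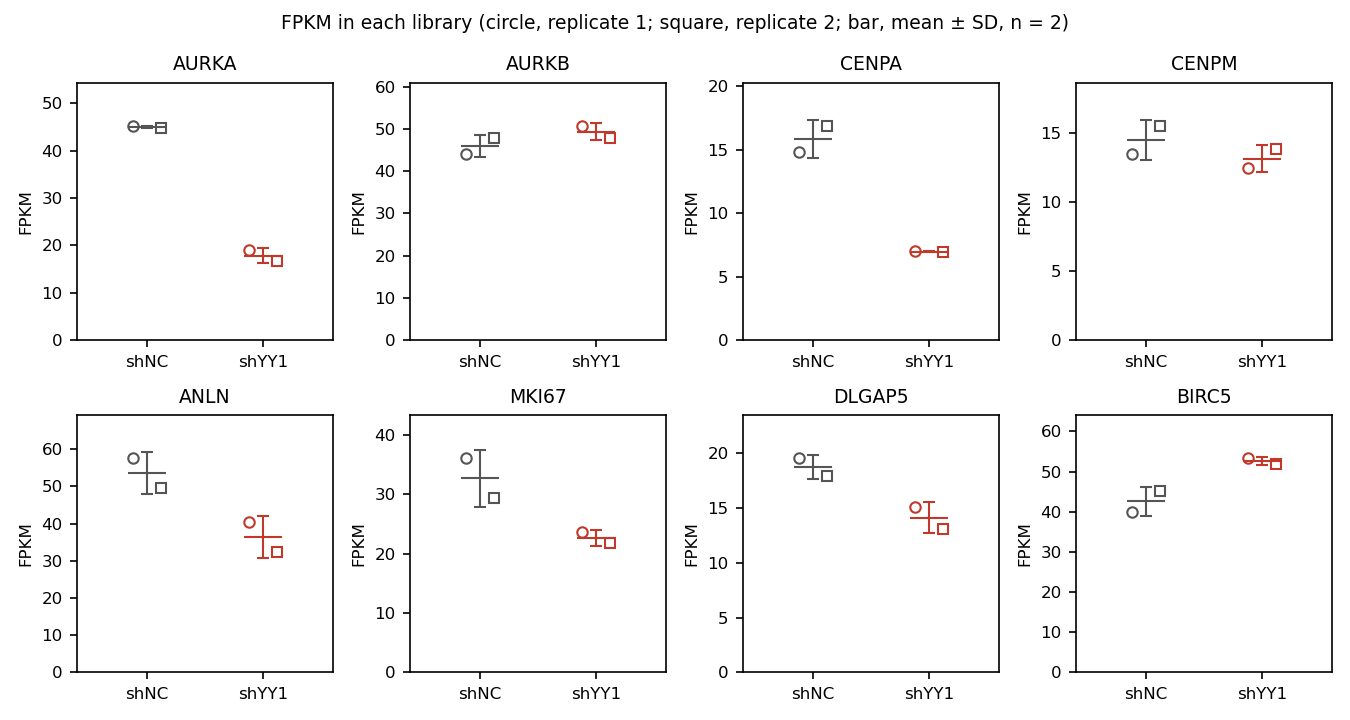
FPKM (y axis, from 0) in each library of shNC and shYY1 for the 6 genes that passed the test and for AURKB and CENPM; circles are replicate 1, squares replicate 2, bars mean ± SD (n = 2). AURKA goes from 45.2 and 44.9 to 18.9 and 16.7 and CENPA from 14.8 and 16.9 to 6.99 and 6.97, while AURKB lies between 44.0 and 50.7 in all 4 libraries.

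Over all tested genes 9.94% passed edgeR's test, and none of the 7 genes of the spindle checkpoint and anaphase control did. At an unadjusted p under 0.05 there was 1, BUB1B, and DESeq2 and limma-trend also called 0 of them. BUB1B, the checkpoint protein BubR1, stood at 74.6 and 67.2 CPM in shNC and 62.2 and 60.5 CPM in shYY1, with -0.21 ± 0.0889 (SE; edgeR adjusted p = 0.187). Its groups did not overlap, and without shNC replicate 2 it passed as lower (-0.28, 0.0359). TTK, the kinase MPS1 that starts checkpoint signalling, stood at 61.8 and 57.6 CPM in shNC and 57.0 and 47.9 CPM in shYY1, with -0.19 ± 0.106 (SE). BUB1, a checkpoint kinase at the kinetochore, was nearest to 0 of all 41 genes, at 120 and 109 CPM in shNC and 116 and 114 CPM in shYY1.

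MAD2L1, which encodes the MAD2 protein that binds CDC20, stood at 73.0 and 78.6 CPM in shNC and 84.8 and 86.1 CPM in shYY1. Its log2 fold change was 0.17 ± 0.0826 (SE; edgeR adjusted p = 0.235), with groups that did not overlap. BUB3, the WD-repeat partner of BUB1 and BUB1B, stood at 182 and 179 CPM in shNC and 187 and 186 CPM in shYY1 (0.05 ± 0.0735, SE). CDC20 had the highest FPKM of this role, 202 and 237 in shNC and 200 and 194 in shYY1. Its log2 fold change was -0.11 with an interval from -0.35 to 0.14. It passed as lower without shNC replicate 1 (-0.25, edgeR adjusted p = 0.0155) and stood at 0.06 without shNC replicate 2, so the direction of CDC20 rested on which control library was used. PTTG1, securin, stood at 149 and 161 CPM in shNC and 144 and 148 CPM in shYY1, with -0.09 (interval -0.27 to 0.09).

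Among the 11 genes of the centromere, kinetochore and chromosomal passenger complex, 1 fell, 1 rose and 9 did not pass. The median of their log2 fold changes was -0.12. The shares that fell and rose were 9.09% each, beside 4.90% and 5.05% of all tested genes. At 5 CPM or more these were 7.67% and 8.17%. CENPA encodes the histone H3 variant of centromeric nucleosomes (ENSG00000115163, chromosome 2, 26764289 to 26801067, plus strand in the deposited table). Its counts were 2299 and 2850 (shNC) and 1147 and 1142 (shYY1), or 32.8 and 39.5 CPM against 16.3 and 16.7 CPM. The shYY1 libraries lay close together and well below both shNC libraries. CENPA fell 2.19-fold, with a log2 fold change of -1.13 ± 0.122 (SE; edgeR adjusted p = 0.00136), and passed in all 14 alternative fits, with values from -1.26 to -0.99. Exons of CENPA overlap those of SLC35F6 on the same strand, which had 4880 to 5488 counts and did not pass (-0.09, edgeR adjusted p = 0.552). CENPM, a subunit of the centromere-associated network that rests on CENPA nucleosomes, stood at 26.9 and 32.7 CPM in shNC and 26.1 and 29.8 CPM in shYY1, with -0.09 (interval -0.38 to 0.20).

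The NDC80 complex is the main microtubule coupler of the kinetochore, and none of its 4 subunits passed. NDC80 stood at -0.03 (interval -0.25 to 0.19), NUF2 at -0.12 (-0.38 to 0.15) and SPC25 at -0.13 (-0.37 to 0.11). SPC24 had 2187 and 2403 counts in shNC and 1891 and 784 in shYY1. Its shYY1 libraries were thus far apart, 26.9 and 11.5 CPM, and both lay below the shNC libraries at 31.2 and 33.3 CPM. The log2 fold change of -0.75 ± 0.505 (SE) did not pass (edgeR adjusted p = 0.494). It was -1.49 and passed without shYY1 replicate 1 (2.27e-06), and it was -0.26 without shYY1 replicate 2.

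BIRC5, survivin, is the subunit that brings the chromosomal passenger complex to centromeres, and it also restrains apoptosis (ENSG00000089685, chromosome 17, 78214186 to 78225636, plus strand in the deposited table). It stood at 174 and 207 CPM in shNC and at 244 CPM in both shYY1 libraries, so both shYY1 libraries lay above both shNC libraries. BIRC5 rose by 0.36 ± 0.0951 on the log2 scale (SE; 1.28-fold), with an edgeR adjusted p of 0.0488 that lies just under the threshold. It did not pass without shYY1 replicate 1 (0.36, 0.213), without shYY1 replicate 2 (0.36, 0.221), without robust estimation (0.36, 0.0676), with limma-trend on log2 CPM (0.36, 0.0546) or with limma-trend on log2(FPKM + 0.1) (0.31, 0.05002). The other passenger subunits stood near 0. CDCA8, borealin, was at 204 and 236 CPM in shNC and 229 CPM in both shYY1 libraries (0.06, interval -0.14 to 0.26), and INCENP, the scaffold of the complex, stood at -0.01 (-0.18 to 0.16). Of the 4 passenger genes, counting AURKB, 1 thus rose and 3 did not pass.

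CENPE, the motor that carries chromosomes to the metaphase plate, and CENPF, a large coiled-coil protein of the outer kinetochore, were spread widely within both groups. CENPE stood at 30.9 and 19.2 CPM in shNC and at 24.2 and 11.8 CPM in shYY1. CENPF stood at 128 and 95.8 CPM in shNC and at 107 and 67.7 CPM in shYY1. In both genes replicate 2 lay below replicate 1 in either group and the groups overlapped. Neither passed (-0.48 ± 0.508, SE, edgeR adjusted p = 0.675 for CENPE and -0.36 ± 0.299, SE, 0.569 for CENPF). Without shYY1 replicate 1 both passed as lower (-1.08, edgeR adjusted p = 0.0301, and -0.72, 0.00776), and without shYY1 replicate 2 they stood at -0.05 and -0.07.

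Among the 10 genes of the spindle, midbody and mitotic chromosome, 3 fell and 7 did not pass. The median of their log2 fold changes was -0.20. ANLN, anillin, links actin, myosin and septins at the cleavage furrow (ENSG00000011426, chromosome 7, 36389821 to 36453791, plus strand in the deposited table). It stood at 393 and 357 CPM in shNC and 289 and 239 CPM in shYY1, without overlap of the groups. ANLN fell 1.42-fold (-0.51 ± 0.106, SE; edgeR adjusted p = 0.0197). It did not pass without shNC replicate 1 (-0.43, 0.214), without shNC replicate 2 (-0.57, 0.122) or without shYY1 replicate 2 (-0.37, 0.251). On the opposite strand its exons overlap those of KIAA0895, which had 1184 to 1376 counts. As the sources used here do not give the strand setting of the counting, reads of such overlapping genes cannot be told apart. In all, 12 of the 41 mitosis genes share exon bases with another gene, 9 of them with a gene on the opposite strand.

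MKI67 encodes Ki-67, the coat protein of mitotic chromosomes that is widely used as a marker of proliferating cells (ENSG00000148773, chromosome 10, 128096659 to 128126423, minus strand in the deposited table). It had 36948 and 32603 counts in shNC and 25467 and 23413 in shYY1, or 528 and 452 CPM against 363 and 343 CPM. MKI67 fell 1.39-fold (-0.47 ± 0.0959, SE; edgeR adjusted p = 0.0169), and did not pass without shYY1 replicate 1 (-0.51, 0.0792) or without shYY1 replicate 2 (-0.43, 0.171). DLGAP5 encodes HURP, a protein of kinetochore microtubules (ENSG00000126787, chromosome 14, 55148112 to 55191585, minus strand in the deposited table). It stood at 80.2 and 77.7 CPM in shNC and 65.2 and 58.0 CPM in shYY1 and fell 1.28-fold (-0.36 ± 0.0903, SE; edgeR adjusted p = 0.0410). It did not pass without robust estimation (-0.36, 0.0537), without shNC replicate 1 (-0.33, 0.0598), without shYY1 replicate 1 (-0.44, 0.106) or without shYY1 replicate 2 (-0.27, 0.422). All 3 genes stayed below 0 in each alternative fit. MKI67 still passed without either shNC library, ANLN without shYY1 replicate 1 and DLGAP5 without shNC replicate 2.

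ASPM, a spindle pole protein, had the lowest log2 fold change of its role, -0.85 ± 0.416 (SE), and did not pass (edgeR adjusted p = 0.365). It stood at 90.2 and 69.7 CPM in shNC and at 58.1 and 30.7 CPM in shYY1, so the groups did not overlap but both were spread widely. It passed as lower without shYY1 replicate 1 (-1.38, 3.54e-06) and stood at -0.46 without shYY1 replicate 2. TPX2, which activates Aurora A at the spindle, had the highest FPKM of this role, 107 and 106 in shNC and 96.3 and 97.4 in shYY1. Its log2 fold change was -0.08 with an interval from -0.26 to 0.10, beside -1.29 for the kinase it activates. TOP2A, the topoisomerase that untangles sister chromatids, stood at 368 and 338 CPM in shNC and 343 and 276 CPM in shYY1, with overlapping groups (-0.19, interval -0.44 to 0.06). CKAP2 (-0.21, interval -0.51 to 0.09) and HMMR (-0.18, -0.53 to 0.16), both microtubule-associated, overlapped in the same way. NUSAP1, a microtubule bundler, stood at 68.4 and 66.3 CPM in shNC and 73.4 and 75.0 CPM in shYY1 (0.14, interval -0.04 to 0.32), and PRC1, which bundles the central spindle, at 161 and 172 CPM in shNC and 183 and 157 CPM in shYY1 (0.03, -0.18 to 0.24). Exons of PRC1 overlap those of AC068831.7 on the same strand, which had 1351 and 886 counts in shNC and 814 and 2726 in shYY1.

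Several of the mitosis genes whose replicates lay far apart have long transcripts. Transcript length was that of the GENCODE 29 transcript with the longest coding sequence, and genes without such a transcript were left out. In the 4 members over 8000 bases (CENPE, CENPF, ASPM and MKI67) the log2 ratio of replicate 2 to replicate 1 had a median of -0.39 in shNC and -0.79 in shYY1. In the 3 members of at most 1000 bases (CKS1B, CKS2 and CENPM) it was 0.23 in shNC and 0.02 in shYY1. Over genes at 5 CPM or more the same classes stood at -0.18 and -0.05 for the 739 longest and at 0.19 and 0.02 for the 544 shortest. Across the 41 genes Spearman's rho of length with this ratio was -0.64 in shNC and -0.45 in shYY1, and with the log2 fold change -0.36. These are descriptions over genes that share libraries, and across the 9986 genes at 5 CPM or more rho with the log2 fold change was -0.22. The longest class of all genes had a median log2 fold change of -0.14 and 14.1% of it fell, against 0.13 and 2.76% in the shortest. The genes that fell have transcripts of 12678 (MKI67), 4787 (ANLN), 2973 (DLGAP5), 2248 (AURKA) and 1452 bases (CENPA). In the class from 2000 to 3000 bases, with AURKA and DLGAP5, the median log2 fold change was 0.06 over all genes and -0.12 over its 11 mitosis genes, and in the class from 1000 to 2000 bases, with CENPA, it was 0.09 and -0.10 (10 mitosis genes). The part of transcript length or RNA quality in any of the 5 falls was not tested.

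**Figure D3:**
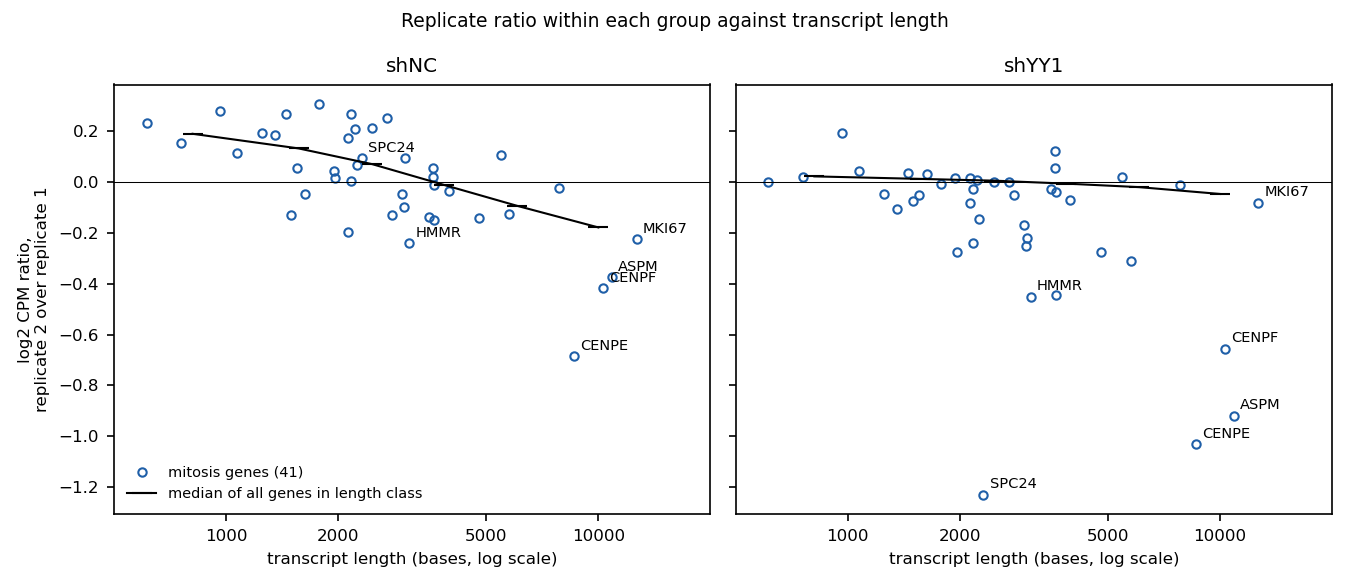
Log2 CPM ratio of replicate 2 over replicate 1 (y axis) against transcript length in bases (x axis, log scale) within shNC (left) and shYY1 (right); circles are the 41 mitosis genes, the line joins the medians of all genes at 5 CPM or more in 6 length classes. CENPE, CENPF and ASPM lie below the line in both groups, and SPC24 at -1.23 in shYY1 only.

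A further sequence feature lies in the 3' untranslated regions (UTRs) of AURKA and CENPA. An earlier search of these same data had singled out the 7-base words TTCAGAA and TCAGAAA as more common in 3' UTRs of genes that were lower in shYY1, so their presence in a gene that fell is no independent support. The annotated 3' UTR (GENCODE 29) of 6 of the 41 mitosis genes, or 14.6%, holds either word, read on the transcript strand, against 30.3% of 9647 searched genes. The searched genes averaged 5 CPM or more and had an annotated 3' UTR of at least 50 bases. The median 3' UTR length was 614 bases in the mitosis genes and 1109 in the searched genes. Among the searched genes the median log2 fold change was -0.11 with either word and 0.07 with neither. As the words were singled out from these same data, this difference is no independent support either. The part of 3' UTR or transcript length in it was not tested. The words overlap in 6 letters, so that TTCAGAAA holds both. The sites of the 3 mitosis genes with a word that fell are shown first, on the transcript strand in GRCh38 with the word in capitals.
AURKA, chr20:56369983-56370010, minus strand: aacctccctaTTCAGAAAgctccacatc
CENPA, site 1, chr2:26794336-26794363, plus strand: tgtgtagcttTTCAGAAActtaattggg
CENPA, site 2, chr2:26794419-26794446, plus strand: tcaaaatcaaTTCAGAAAttctaacttg
CENPA, site 3, chr2:26794487-26794513, plus strand: atcataacagTTCAGAAttttaaagta
ANLN, chr7:36453141-36453168, plus strand: tgaggctgtcTTCAGAAAagtgatgtgg
The other 3 genes with a word did not fall, and 1 of them rose.
BIRC5, chr17:78224363-78224389, plus strand: cgctcctcccTCAGAAAaaggcagtgg
MAD2L1, site 2 of 3, chr4:120058826-120058853, minus strand: aatctgttcaTTCAGAAAttacatattg
BUB3, site 2 of 2, chr10:123170351-123170378, plus strand: atttcaaacaTTCAGAAAaactcaggat
AURKA, CENPA and ANLN have 3' UTRs of 768, 829 and 1191 bases, with the 3 sites of CENPA beginning 582, 665 and 733 bases after the stop codon. Those of BIRC5, MAD2L1 and BUB3 are longer, at 2082, 4510 and 6632 bases. MKI67 and DLGAP5, which fell, hold neither word.

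**Figure D4:**
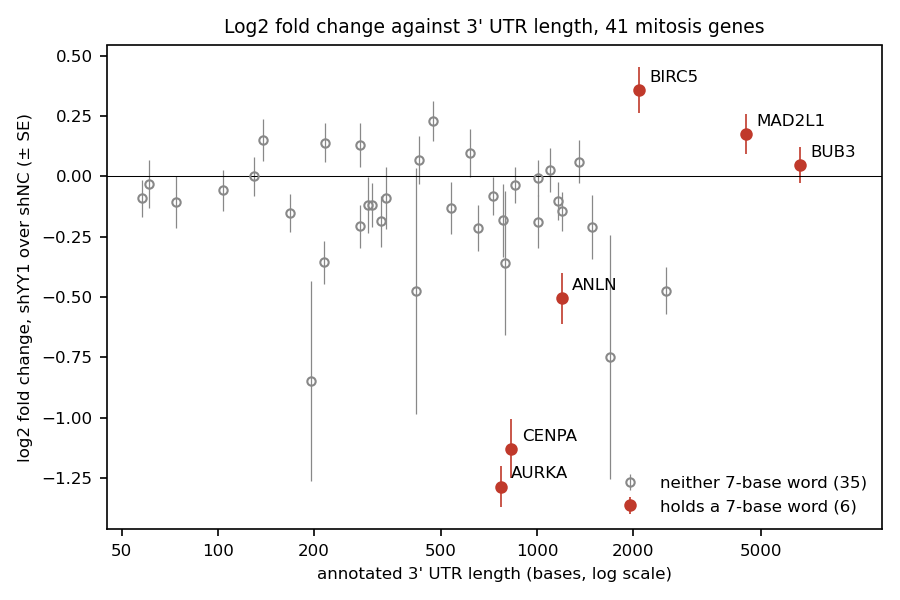
Log2 fold change of shYY1 over shNC (y axis, bars are ± SE) against annotated 3' UTR length in bases (x axis, log scale) for the 41 mitosis genes; filled red points hold a 7-base word named in the text. AURKA, CENPA and ANLN lie below 0 at 768 to 1191 bases, and BIRC5, MAD2L1 and BUB3 above 0 at 2082 to 6632 bases, BUB3 by 0.05, a value that falls to -0.0041 when libraries are scaled by their totals alone.

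Other genes of mitosis and of the cell cycle were read beside these 41 in lists that were chosen with earlier results of these data known. Of 106 tested further mitosis genes 12 fell, 4 rose and 90 did not pass, and the median log2 fold change was -0.08. Beside the counts of these lists, 4.90% of all tested genes fell and 5.05% rose. At 5 CPM or more these shares were 7.67% and 8.17%. STMN1, the microtubule destabiliser stathmin, fell from 218 ± 16.9 to 121 ± 0.391 CPM (SD, n = 2; log2 fold change -0.84 ± 0.0829, SE; edgeR adjusted p = 0.000895). PSRC1, a spindle-associated protein (-0.76 ± 0.106, SE), the cohesin subunit RAD21 (-0.56 ± 0.0875) and CDC27, a subunit of the anaphase-promoting complex (-0.70 ± 0.111), followed with edgeR adjusted p-values of 0.00388, 0.00605 and 0.00628. CDC25A, a phosphatase that activates CDKs (0.56 ± 0.0876, SE; 0.00628), and SKA2, a subunit of a kinetochore complex (0.46 ± 0.0934; 0.0178), rose. Of 12 mitotic kinesins KIF20A fell (-0.34, edgeR adjusted p = 0.0250), KIF2C rose (0.33, 0.0470) and 10 did not pass, and their median together was -0.26.

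Of 40 genes of DNA replication and S phase 2 fell, 2 rose and 36 did not pass, and the median log2 fold change was 0.01. MCM6, a subunit of the replicative helicase, fell by 0.69 ± 0.0754 (SE; edgeR adjusted p = 0.00136) and the clamp loader subunit RFC4 by 0.54 ± 0.0921 (0.00875), while CCNE1, cyclin E1 (0.55 ± 0.105; 0.0139), and GINS4, of the same helicase (0.48 ± 0.095; 0.0149), rose. Of 21 regulators of mitotic gene transcription 1 fell, 1 rose and 19 did not pass. For both lists the shares over all tested genes were 4.90% lower and 5.05% higher. FOXM1, an activator of G2 and M phase genes, went from 312 ± 3.19 to 256 ± 2.66 CPM (SD, n = 2) and fell by 0.28 ± 0.0752 on the log2 scale (SE; edgeR adjusted p = 0.0478). CDKN1A, the CDK inhibitor p21, rose from 84.6 ± 13.3 to 134 ± 4.67 CPM (SD, n = 2; 0.66 ± 0.109, SE; edgeR adjusted p = 0.00758). Whether either bears on the mitosis genes was not tested.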

How the data were processed

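The table deposited by the authors holds gene counts (whole numbers) beside FPKM values for 4 libraries, per the file headers. Per the submitters' processing notes, Bowtie 0.12.2 and the mouse builds mm8 and mm9 were used, which cannot have given human gene IDs; for the aligner, counter and strand setting of this table, the sources used here name none. All 41 members lie on the same chromosome in GENCODE 29 (GRCh38), 10 with the same start and end. Columns were matched to samples by name, and 0 belonged to other samples.

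Of 30716 genes, 18035 passed edgeR's filterByExpr (minimum count 10, minimum total 15) and were tested in edgeR 4.0.16 under R 4.3.3 (quasi-likelihood; TMM factors, robust, no block, 2 residual degrees of freedom, adjusted p under 0.05). SEs come from the fold change and F, intervals are 95%, and CPM is TMM-scaled. Replicates differed beyond sampling noise (chi-square per gene 33.5 in shNC and 15.5 in shYY1). Alternatives used RLE factors, library totals, no filter, 5 CPM in 2 libraries, DESeq2 1.42.0, limma-trend (limma 3.58.1) on log2 CPM or log2(FPKM + 1 or 0.1) from 1 FPKM, no robust estimation, each library left out, and a replicate block. The fit was tested on simulated data. For genes at 5 CPM or more it recovered 49.5% of 1.5-fold and 86.7% of 2-fold changes. False calls numbered 15 and 27 over the 18035 genes. As only a small set of genes was changed in each run, false calls made up more than the nominal 0.05 of all calls. ANLN (1.42-fold), MKI67 (1.39-fold), DLGAP5 (1.28-fold) and BIRC5 (1.28-fold) lay under 1.5-fold. The members, lists and words were chosen with earlier results of these data known. All members are named; values in every library are given for those that passed and, by role, for the 2 largest rises, 2 largest falls and 2 highest FPKM values. In other lists, up to 4 genes with the smallest adjusted p and 2 of the opposite direction are named. AURKB with CENPM in the plot, the pair ratio and further members were singled out after values were seen.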

Additional observations from a re-analysis of the deposited data

How the results depend on the processing

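AURKA, CENPA and YY1 passed in every alternative run. Of 410 values of members under alternatives that kept all libraries, 391 kept direction and call, 4 lost a call, 4 gained one and 11 changed sign, none of these with a call. Of 164 values with a library left out, 126 kept both, 10 lost a call, 12 gained one and 16 changed sign without a call. Mitosis genes lower in shYY1 numbered 5, and 8 with the replicate number as a block, where ASPM, CENPE and CENPF joined. With 2 pairs whose deviations correlated at 0.00 over genes, the numbers are not shown to pair the libraries. The count was 2 to 7 with a library left out, lowest without shYY1 replicate 2. Mitosis genes higher numbered 1, 2 with DESeq2, 0 with limma-trend on log2 CPM or log2(FPKM + 0.1) and without robust estimation, and 0 to 5 with a library left out, highest without shNC replicate 2. Over the 4 other lists 16 fell, against 28 at 5 CPM in 2 libraries, 26 with DESeq2, 33 with the block and 8 to 23 with a library left out, and 8 rose, against 15 with DESeq2, 15 with the block and 2 to 25. The cause of these shifts was not tested. These members changed sign. With library totals alone BUB1 stood at -0.0511, BUB3 at -0.0041 and PRC1 at -0.0225. At 5 CPM in 2 libraries BUB1 stood at -0.0305 and PRC1 at -0.0034. With log2(FPKM + 1) and log2(FPKM + 0.1) BUB1 stood at -0.0484 and -0.0511, BUB3 at -0.0065 and -0.0068, and PRC1 at -0.0289 and -0.0301. With a library left out values ranged in CCNB1 from -0.0303 to 0.241, in CDC25C from -0.0165 to 0.1604, in PBK from -0.1167 to 0.0084, in CDC20 from -0.2502 to 0.061, in BUB1 from -0.0614 to 0.0712, in CENPM from -0.2223 to 0.0599, in NUF2 from -0.2604 to 0.0146, in NDC80 from -0.1545 to 0.0858, in INCENP from -0.0401 to 0.0312, in CDCA8 from -0.0419 to 0.1755, in HMMR from -0.4233 to 0.0277 and in PRC1 from -0.0855 to 0.1342. Such fits have 1 library in a group, which is assumed to vary like the other group. With 2 libraries per group and a common coefficient of variation of 20.2%, intervals of members not called span 0 or lie near it, and do not show that a gene stayed the same.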
